A study of Mus musculus with 5 samples.

Results

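The genes followed here, 10 in number, make, break down or bind hyaluronan, and were measured in mouse lung fibroblasts given TGF-β1: the synthases Has1, Has2 and Has3, the hyaluronan-degrading Hyal1, Hyal2 and Cemip, the receptor gene Cd44, the proteoglycan genes Vcan and Acan, and Tnfaip6. They were chosen by name, with earlier results of these data known, and all 10 were found among the 55335 genes of the deposited table. Primary fibroblasts had been taken from mouse lung, cultured, and kept for 24 h with vehicle (2 libraries) or with TGF-β1 at 5 ng/mL (3 libraries). TGF-β1 is a secreted cytokine widely used to turn fibroblasts into matrix-making myofibroblasts. The sources used here give no strain, age, sex or genotype of the mice, and do not say whether libraries came from separate animals. The p-values thus cover only the variation among 5 libraries, which may be technical.

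Hyaluronan is a long unsulfated sugar chain of the extracellular matrix. Synthases in the plasma membrane build it from UDP-glucuronic acid and UDP-N-acetylglucosamine and push it out of the cell. Outside the cell it is bound by receptors such as CD44 and by large proteoglycans of the lectican family, and it is cut by hyaluronidases and by CEMIP. In the lung it holds water and is known to build up in injured and fibrotic tissue.

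Gene levels are in CPM, counts scaled to library size with TMM factors, and errors are SD (n = 2 controls, n = 3 TGF-β1 libraries). A positive log2 fold change means a higher level with TGF-β1. A gene is said to rise or fall where edgeR's quasi-likelihood test gave an adjusted p under 0.05 over all 16380 genes tested. Library totals ran from 34283288 to 43163967 counts. Of 8 fibroblast markers 4 were higher and 4 lower with TGF-β1. Col1a1, a fibrillar collagen, was among the highest in level and rose from 10220 CPM in controls to 16482 CPM with TGF-β1. Col1a2, Pdgfrb and Vim rose too. Those lower were Pdgfra (177 CPM in controls, 43.6 CPM with TGF-β1), Dcn (141 and 37.7 CPM), Thy1 (224 and 118 CPM) and Lum. Lum, a small proteoglycan gene, was at 2 to 22 counts a library. Markers of other cells were also counted: the summed level of 8 mesothelial markers was 1386 to 1471 CPM in controls and 168 to 187 CPM with TGF-β1, with 8 of 8 lower. The sum of 6 macrophage and leukocyte markers, mostly Lyz2, was 2306 to 2379 CPM in controls and 1387 to 1423 CPM with TGF-β1, with 5 lower and 1 higher. Endothelial markers summed to under 5 CPM in every library, and of 5 epithelial markers Sftpc, Sftpb and Scgb1a1 were at 0 counts in all 5 libraries and Epcam at 0 to 2. The other, Cdh1, encoding E-cadherin, was the 1 tested and rose from 2.03 ± 0.348 to 3.92 ± 0.205 CPM (log2 fold change 0.95, adjusted p = 0.00261 by edgeR). Fewer cells of a type and less RNA per cell cannot be told apart in such bulk samples, and the part of these other cells in the changes described next was not tested.

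Has2, Has1, Cd44, Vcan, Acan, Tnfaip6 and Hyal1 rose with TGF-β1, Cemip and Has3 fell, and Hyal2 did not pass. The 7 higher and 2 lower of 10 compare with 21.3% higher and 23.2% lower among all genes tested, 44.5% together. Changes that passed and reached at least 2-fold were found in 7 of the 10 genes and in 10.9% of all genes. In all 10 the TGF-β1 libraries lay entirely above or entirely below the controls, as they did in 64.6% of all genes. The 10 were chosen with earlier results of these data known, so these shares are given as a description. All 10 genes passed the filter on low counts, but Has1 did so through the TGF-β1 libraries alone, so that it had to differ. Without Has1, 6 of 9 rose and 2 fell, 6 of the 9 passed and reached at least 2-fold, and the median log2 fold change was 0.71, against 0.00 over all genes tested. Scaling by library totals alone moved the median of all genes by −0.10 and the higher share of all calls from 47.9% to 32.1%.

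**Figure D1:**
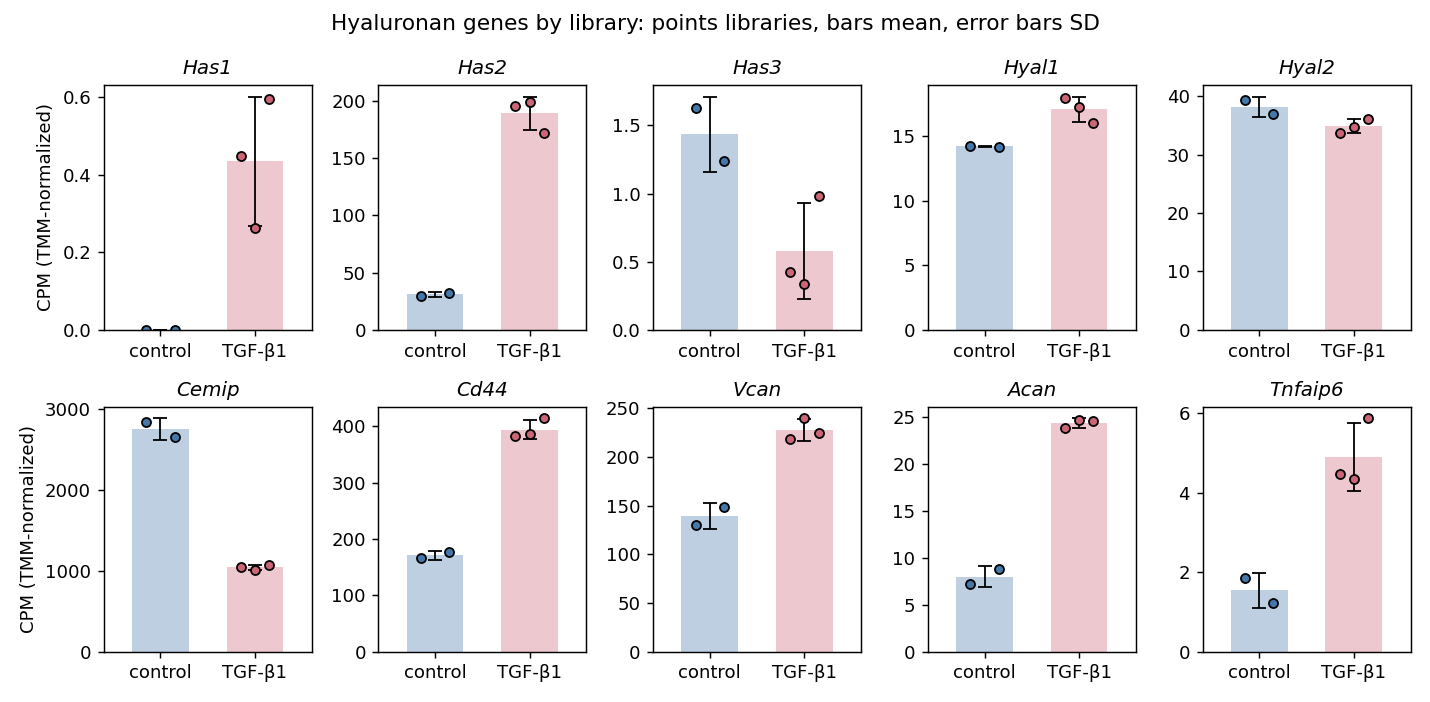
Level of each of the 10 hyaluronan genes in CPM by library, each panel on its own linear axis from 0. Points are libraries, bars the mean and error bars the SD (control n = 2, TGF-β1 n = 3). Has2 stands near 31 CPM in controls and between 172 and 199 CPM with TGF-β1, while Cemip drops from 2654 CPM or more to 1076 CPM or less.

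Upstream sequence is shown for the gene of highest level in the group, Cemip, which fell, and for Vcan and Tnfaip6, which rose, because the sequences differ in how many of 4 factor motifs they hold. RefSeq promoter windows (GRCm38.p6) were found for 8 of the 10 genes and were not found for Has2 and Has3. The 250 bases before each start site were searched on both strands for CAGAC, the SMAD box bound by the transducers of TGF-β signals, for TGANTCA, the AP-1 site, for GGAATG, the TEAD site, and for GGGCGG, the GC box. Matches are in capitals on whichever strand they lie, and each line reads 5′ to 3′ on the strand of its gene.
Cemip: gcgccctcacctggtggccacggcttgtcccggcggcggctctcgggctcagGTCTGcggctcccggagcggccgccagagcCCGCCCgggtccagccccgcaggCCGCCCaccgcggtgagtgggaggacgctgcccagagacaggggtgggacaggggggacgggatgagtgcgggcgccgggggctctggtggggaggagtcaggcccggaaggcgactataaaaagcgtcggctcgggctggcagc
Vcan: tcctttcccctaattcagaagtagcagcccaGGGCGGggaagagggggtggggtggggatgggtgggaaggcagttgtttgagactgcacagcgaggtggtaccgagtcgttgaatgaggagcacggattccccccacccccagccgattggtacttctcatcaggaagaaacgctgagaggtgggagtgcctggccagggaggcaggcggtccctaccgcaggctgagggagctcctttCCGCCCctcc
Tnfaip6: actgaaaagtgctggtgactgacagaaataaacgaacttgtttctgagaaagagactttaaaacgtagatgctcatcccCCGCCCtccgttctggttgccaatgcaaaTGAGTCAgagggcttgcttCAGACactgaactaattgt
The Cemip stretch is chr7:84086506-84086755 on the minus strand, the Vcan stretch chr13:89742513-89742762 on the minus strand, and the Tnfaip6 stretch chr2:52037863-52038008 on the plus strand, where the 104 bases nearest the RefSeq start are left out because GENCODE places them inside the gene. The Cemip stretch holds 1 SMAD box and 2 GC boxes in sequence that is 75.2% G and C, against a median of 52.4% over all 32851 windows. The Vcan stretch holds 2 GC boxes and no SMAD box. The Tnfaip6 stretch holds a GC box, an AP-1 site and a SMAD box, whose first letters lie 171, 142 and 123 bases before the RefSeq start, and a TEAD site lies in the bases left out. A SMAD box was found in 3 of the 6 genes that rose and have a window (Has1, Hyal1 and Tnfaip6), in Cemip, and in 42.2% of all windows. An AP-1 site was found in 1 of the 8 genes, Tnfaip6, and in 6.75% of all windows. GC boxes stood in 6 of the 8 genes and in 32.7% of all windows, and TEAD sites in 3 of the 8 and in 12.6%. In G and C, the windows of all these genes but Tnfaip6 (44.4%) were above the median of 52.4%. The window of Hyal2, counted for both motifs, lies wholly inside the gene as GENCODE places it. The window of Cd44 held none of the 4.

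Has2, a synthase known for making long chains, is on chromosome 15 at 56665627 to 56694539 of GRCm38, minus strand. It stood at 29.5 and 32.6 CPM in the controls and at 196, 199 and 172 CPM in TGF-β1 libraries 1, 2 and 3. The groups were far apart, and TGF-β1 library 3 was the lowest of its group. The increase was 6.08-fold (log2 fold change 2.60, SE 0.0759, adjusted p = 9.22e-09 by edgeR). An antisense gene, Has2os, shares 182 bases of exon with it and held 89 counts over the 5 libraries against 25329 for Has2. Has2os itself went from 0.263 ± 0.133 to 0.561 ± 0.167 CPM and did not pass (adjusted p = 0.125 by edgeR).

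The other synthases were scarce. Has1, on chromosome 17 at 17843323 to 17855205, had 0 counts in both controls but 18, 11 and 23 in the TGF-β1 libraries. Taking 3 counts in both controls together (0.0386 CPM) as the limit that 0 counts allow, its mean of 0.435 ± 0.167 CPM was at least 11.3-fold higher (adjusted p = 0.00211 by edgeR). Without the low-count filter the adjusted p was 0.00554 by edgeR. With 0 counts in the controls, Has1 entered either test only through the TGF-β1 libraries, so neither p-value is support for a difference. Has3, on chromosome 8 at 106870242 to 106884566 and known for shorter chains, was counted 58 and 52 times in the controls and 17, 14 and 38 times with TGF-β1. That is 1.43 ± 0.278 against 0.579 ± 0.352 CPM (log2 fold change −1.31, SE 0.446, adjusted p = 0.0392 by edgeR). TGF-β1 library 3 lay nearest the controls, but the groups did not overlap. The call of Has3 depended on single libraries: without control 1 the adjusted p was 0.22, without control 2 0.0937, without TGF-β1 library 1 0.0985 and without library 2 0.103. Without library 3 it was 0.00185, with a log2 fold change of −1.91. Has3 also shares 352 bases of exon with the far more abundant Chtf8 on the opposite strand, and no source used here states the strand setting of the counting, so its level is uncertain.

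Per length, Has2 made up nearly all synthase RNA in both groups. TPM, counts per length of annotated exon scaled to the same sum in each library, put the sum of the 3 synthases at 28.1 ± 1.67 in controls and 156 ± 11.2 with TGF-β1. The share of Has2 in that sum was 96.5% and 97.5% in the controls and 99.6%, 99.8% and 99.3% in the TGF-β1 libraries. The rest was Has3 in the controls (3.00% ± 0.763), and Has3 with Has1 in the TGF-β1 libraries (Has3 0.210% ± 0.145). With 2 libraries against 3, an exact permutation test of such a share cannot go below a p of 0.1, and it is given as a description.

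Of the degrading genes, Cemip fell and the hyaluronidases moved little. Cemip encodes a hyaluronan-binding protein needed for the breakdown of hyaluronan by skin fibroblasts in humans. It is on chromosome 7 at 83932857 to 84086502 and was the most abundant of the 10, at 2848 and 2654 CPM in the controls and 1047, 1009 and 1076 CPM with TGF-β1. The groups were well separated, and the spread within each was small beside the gap. The decrease was 2.63-fold (log2 fold change −1.40, SE 0.0341, adjusted p = 3.28e-09 by edgeR). In TPM, the ratio of Cemip to Has2 was 33.4 and 28.2 in the controls and 1.85, 1.75 and 2.16 with TGF-β1, a ratio formed after the values were seen and given with no test.

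Hyal1, a lysosomal hyaluronidase on chromosome 9 at 107576927 to 107581710, stood at 14.2 CPM in both controls and at 17.9, 17.3 and 16.0 CPM with TGF-β1. All TGF-β1 libraries were above the controls, by 1.20-fold on average (log2 fold change 0.27, SE 0.0854, adjusted p = 0.0308 by edgeR). Hyal1 shares 1920 bases of exon with Naa80, an acetyltransferase gene on the same strand with 1.20 times its counts, so reads of both cannot be told apart there. Naa80 alone did not pass (log2 fold change 0.23, adjusted p = 0.261 by edgeR), and the summed counts of both genes gave a log2 fold change of 0.24 and an adjusted p of 0.0561 by edgeR. The increase in Hyal1 was also lost with library totals (adjusted p = 0.148), without control 1 (0.115) or control 2 (0.125), and without TGF-β1 library 1 (0.0906) or 2 (0.0782). Hyal2, a membrane-anchored hyaluronidase that cuts long chains into fragments, lies beside it at 107567945 to 107572779. It went from 39.4 and 37.0 CPM in the controls to 33.7, 34.7 and 36.1 CPM with TGF-β1. The groups came close to each other and the gene did not pass (log2 fold change −0.13, SE 0.0587, adjusted p = 0.101 by edgeR). With library totals Hyal2 passed as lower (log2 fold change −0.23, adjusted p = 0.0101).

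Cd44, the main cell surface receptor of hyaluronan, rose in every TGF-β1 library. It is on chromosome 2 at 102811141 to 102901665, and stood at 166 and 177 CPM in the controls and at 382, 386 and 414 CPM with TGF-β1. Library 3 was the highest, and no control came near the TGF-β1 libraries. The increase was 2.30-fold (log2 fold change 1.20, SE 0.0447, adjusted p = 4.67e-08 by edgeR). CD44 is known from many splice forms, and a count per gene does not separate them. Macrophages and other leukocytes also express CD44. The 6 macrophage and leukocyte markers, mostly Lyz2, summed to less with TGF-β1, as given above. Of these 5 were lower, whereas Ptprc rose from 26.4 ± 1.29 to 32.3 ± 0.700 CPM (log2 fold change 0.29). The part of such cells in the level of Cd44 was not tested.

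Of the lecticans, the proteoglycans that hang on hyaluronan, Vcan and Acan rose. Bcan (brevican) did not pass at 0.898 ± 0.160 CPM in controls and 0.803 ± 0.345 CPM with TGF-β1 (log2 fold change −0.16, SE 0.410), and Ncan (neurocan) was at 0 to 2 counts a library. Vcan encodes versican, the large chondroitin sulfate proteoglycan of soft tissues, and is on chromosome 13 at 89655312 to 89742509. It stood at 130 and 148 CPM in the controls and at 218, 240 and 225 CPM with TGF-β1. The groups did not overlap, and the increase was 1.63-fold (log2 fold change 0.71, SE 0.0609, adjusted p = 1.36e-05 by edgeR). Acan encodes aggrecan, best known as the main proteoglycan of cartilage, and is on chromosome 7 at 79053483 to 79115099. It stood at 7.16 and 8.75 CPM in the controls and at 23.8, 24.7 and 24.5 CPM with TGF-β1. The TGF-β1 libraries were close together and well above both controls (log2 fold change 1.61, SE 0.0996, adjusted p = 1.47e-06 by edgeR). In TPM, Vcan was above Acan by 9.35 and 8.76 times in the controls and by 4.73 to 5.01 times with TGF-β1. The 7 chondrocyte markers summed to 20.2 to 23.1 CPM in controls and 23.8 to 27.4 CPM with TGF-β1, and of the 3 tested 1 rose, 1 fell and 1 did not pass. Sox9, a transcription factor, rose from 9.94 to 17.3 CPM, whereas Col2a1, the cartilage collagen, was at 2 to 11 counts a library and Ucma at 0; their part in the change of Acan was not tested.

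Tnfaip6 encodes TSG-6, a secreted protein that binds hyaluronan and moves heavy chains of inter-α-inhibitor onto it. It is on chromosome 2 at 52038009 to 52056686, and its counts were 66 and 52 in the controls against 180, 182 and 227 in the TGF-β1 libraries. In CPM this is 1.85 and 1.24 against 4.47, 4.33 and 5.87. Control 1 was the higher control and TGF-β1 library 3 the highest of all, and the groups did not overlap (log2 fold change 1.67, SE 0.237, adjusted p = 0.000377 by edgeR).

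**Figure D2:**
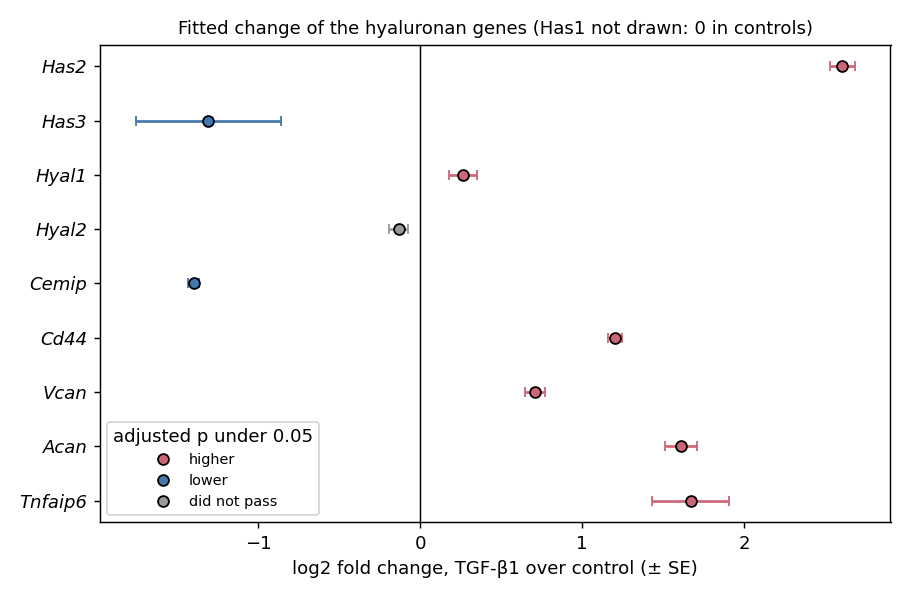
Fitted log2 fold change, TGF-β1 over control, of 9 hyaluronan genes with its SE, coloured by whether the adjusted p was under 0.05. Has2 stands at 2.60 and Cemip at −1.40, the SE of Has3 is the widest at 0.446, and Has1 is not drawn because both controls were at 0 counts.

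The order of levels per length changed in the middle. In the controls it was Cemip (835 ± 44.0 TPM), Cd44 (93.8 ± 3.90), Hyal2 (43.1 ± 2.08), Vcan (35.7 ± 3.29), Has2 (27.2 ± 1.83), Hyal1 (14.0 ± 0.0691), Acan (3.96 ± 0.547), Tnfaip6 (3.36 ± 0.958), Has3 (0.834 ± 0.164) and Has1 at 0. With TGF-β1 Has2 (155 ± 11.5 TPM) moved from rank 5 to rank 3, behind Cemip (297 ± 10.3) and Cd44 (202 ± 9.95) and above Vcan (54.7 ± 2.78) and Hyal2 (36.8 ± 1.49). Neighbours whose libraries overlapped were Acan and Tnfaip6 in both groups, and Has1 and Has3 with TGF-β1. All other neighbours were separated within each group.

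**Figure D3:**
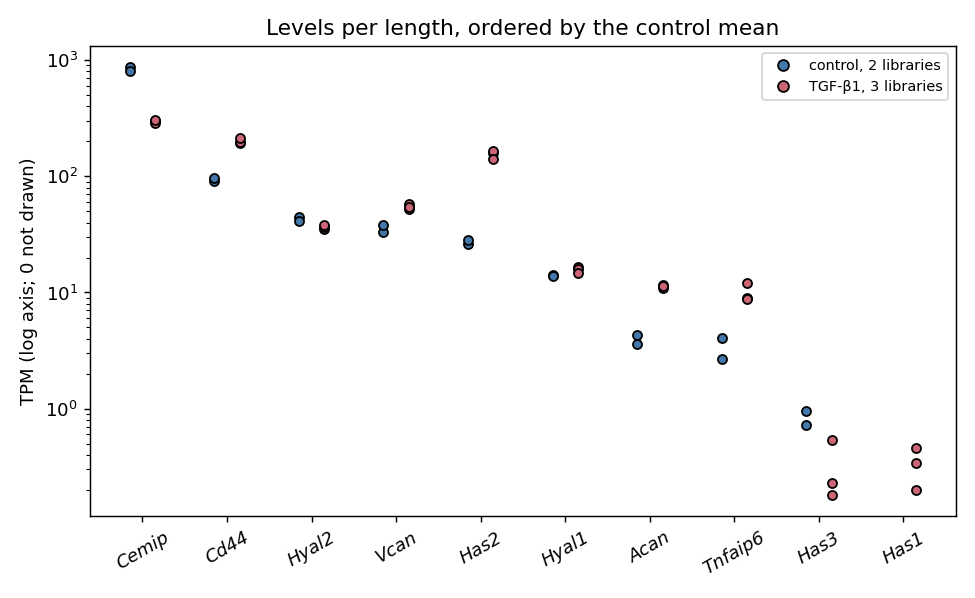
Level per length of each hyaluronan gene in TPM on a log axis, ordered by the control mean, with 1 point per library and values of 0 not drawn. Cemip is highest in both groups, and Has2 moves from 27.2 to 155 TPM.

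The genes whose pattern over the 5 libraries was most like that of Has2 were Prag1, a pseudokinase gene, Inhba, the activin A subunit, and Ptgs2, the inducible cyclooxygenase. Their log2 CPM, each centred on its own mean, differed from that of Has2 by a root mean square of 0.0652, 0.0928 and 0.0996 among 11239 genes compared. With only 2 groups, this measure mostly picks genes whose change is of the same size as that of Has2. Their log2 fold changes were 2.51, 2.74 and 2.59, against 2.60 for Has2. Prag1 went from 17.1 ± 0.217 to 97.0 ± 6.24 CPM and Ptgs2 from 439 ± 1.17 to 2643 ± 43.8 CPM.

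Beyond the 10 genes, 56 others of hyaluronan metabolism and binding were examined. Of these 43 were tested, and 11 rose, 14 fell and 18 did not pass, against 21.3% higher and 23.2% lower among all genes. Their median log2 fold change was −0.07. Values are given for up to 4 genes a list by a fixed rule, and further genes of short lists of calls are named after their values were seen.

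Genes that supply the sugar precursors split by arm. All 5 genes of the route from fructose-6-phosphate to UDP-N-acetylglucosamine rose, a grouping made after their values were seen. Gnpnat1, the acetyltransferase of the route, rose from 28.0 ± 0.755 to 47.1 ± 0.527 CPM (log2 fold change 0.75, adjusted p = 3.34e-06 by edgeR). Pgm3, the phosphoglucomutase, stood at 22.0 ± 1.24 CPM in controls and 32.6 ± 0.880 CPM with TGF-β1 (log2 fold change 0.57). Gfpt2, an isoform of the entry enzyme, stood at 41.0 ± 1.43 and 58.7 ± 1.01 CPM (log2 fold change 0.52). The others were Gfpt1 (log2 fold change 0.45) and Uap1 (0.52), named after their values were seen. Uap1l1, a paralog of Uap1, fell from 38.8 ± 0.232 to 20.1 ± 1.80 CPM (log2 fold change −0.95, adjusted p = 1.02e-05 by edgeR). On the UDP-glucuronic acid side, also named after their values were seen, Ugp2 fell slightly (log2 fold change −0.22) and Ugdh, the dehydrogenase that makes the precursor, did not pass (0.05, SE 0.0510). Of the 10 genes of this list, 5 rose, 2 fell and 3 did not pass, with a median of 0.33. Exons of Gnpnat1 and Pgm3 overlap Styx and Dop1a on the opposite strand, each at over 0.1 of their counts, which leaves their values uncertain.

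Of 5 other turnover enzymes tested, 1 fell and 4 did not pass. Hexa, a lysosomal hexosaminidase chain, fell to 130 ± 4.78 CPM from a control level of 154 ± 0.671 CPM (log2 fold change −0.24, adjusted p = 0.00103 by edgeR). Hyal3, a scarce hyaluronidase relative, was counted 12 and 31 times in the controls and 11, 2 and 7 times with TGF-β1, and did not pass (log2 fold change −1.69, SE 0.654, adjusted p = 0.0631 by edgeR). In CPM its groups did not overlap, but it shares exons with the far more abundant Hyal1 and Naa80 and is uncertain. Cemip2, a cell surface relative of Cemip, did not pass either, at 47.5 ± 2.28 and 47.1 ± 3.32 CPM (log2 fold change −0.01, SE 0.067). Hyal4, Hyal5, Hyal6 and Spam1 were at 0 counts in all 5 libraries.

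Most other receptors fell. Of 6 tested, 0 rose, 5 fell and 1 did not pass, against 23.2% lower among all genes tested. The median log2 fold change was −0.68. Named after their values were seen, Layn fell (log2 fold change −0.39) and the scarce Lyve1 did not pass (log2 fold change −1.85, SE 0.830). Stab1, a scavenger receptor, fell from 132 ± 1.12 to 79.5 ± 3.10 CPM (log2 fold change −0.73, adjusted p = 1.28e-06 by edgeR), with an exon overlap with Nt5dc2 on the opposite strand that leaves it uncertain. Hmmr, a hyaluronan-binding protein of the mitotic spindle, stood at 35.6 ± 0.866 CPM in controls and 21.5 ± 0.298 CPM with TGF-β1 (log2 fold change −0.73). The toll-like receptor genes Tlr2 and Tlr4 fell as well (log2 fold changes −0.64 and −0.55), Tlr2 to 12.5 ± 0.128 CPM with TGF-β1 from 19.5 ± 1.61 and Tlr4 to 16.2 ± 0.778 CPM from 23.8 ± 0.536. Macrophages express Stab1, Tlr2 and Tlr4. Of the 6 macrophage and leukocyte markers 5 were lower and 1 higher. Their log2 fold changes were −0.20 for Csf1r, −0.56 for Adgre1, −0.71 for Cd68, −0.81 for Lyz2, −1.78 for Cd14 and 0.29 for Ptprc. Csf1r shares exons with Hmgxb3 on the opposite strand, which leaves its value uncertain. The part of such cells in the decreases of the receptors was not tested.

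Link proteins and the partners of TSG-6 were mostly scarce. Of 14 genes 7 were tested, and 2 rose, 1 fell and 4 did not pass, with a median of 0.19. Habp4, named for hyaluronan binding but mainly an intracellular RNA-binding protein, rose by 0.29 on the log2 scale, with 28.9 ± 0.395 CPM in controls and 35.4 ± 0.977 CPM with TGF-β1. Named after their values were seen, Hapln4, a link protein, rose to 3.39 ± 0.132 CPM with TGF-β1 from 1.42 ± 0.0158 (log2 fold change 1.26), and Ptx3, a pentraxin that binds TSG-6, fell to 1.02 ± 0.262 CPM from 4.76 ± 0.570 (log2 fold change −2.23). Hapln1, the cartilage link protein, and Hapln2 were at 0 counts in all 5 libraries. The inter-α-inhibitor heavy chain genes Itih1 and Itih3, whose products TSG-6 moves onto hyaluronan, were at 0 to 2 counts in every library. Itih2, another of these heavy chain genes, was at 14 to 28 counts and did not pass (log2 fold change 0.19, SE 0.454).

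Proteases that cut versican, aggrecan or CD44 moved in opposite directions. Adamts1, Adamts5 and Adamts9, which cleave versican and aggrecan, fell, with log2 fold changes of −2.58, −2.74 and −3.44. Their control levels were 224 ± 14.3, 91.4 ± 0.304 and 73.5 ± 1.87 CPM, and with TGF-β1 they stood at 37.6 ± 4.45, 13.7 ± 0.788 and 6.79 ± 0.467 CPM. Adamts4, another aggrecanase, rose from 55.5 ± 3.87 to 119 ± 4.93 CPM (log2 fold change 1.10, adjusted p = 4.76e-07 by edgeR). Of 9 tested, 2 rose, 4 fell and 3 did not pass, with a median of −1.29. The remaining calls, named after their values were seen, were Mmp14, a membrane protease that cleaves CD44, which rose (log2 fold change 0.65), and the scarce Adamts15, which fell (−2.36). Adam10 and Adam17, sheddases of CD44, did not pass (log2 fold changes −0.07 and −0.10). Since the strand setting of the counting is not given, the values of Adamts4, Adamts9 and Adam17 are uncertain. Adamts9 shares exons with A730049H05Rik on the opposite strand, and Adam17 with Iah1.

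Linkers of CD44 to the actin cytoskeleton split. Ezr, encoding ezrin, fell from 860 ± 14.4 to 83.7 ± 3.74 CPM (log2 fold change −3.36, adjusted p = 3.79e-11 by edgeR), while its relatives rose, Msn (moesin) to 1924 ± 14.0 CPM with TGF-β1 from 1259 ± 20.9 (log2 fold change 0.61) and Rdx (radixin) to 151 ± 1.76 CPM from 121 ± 3.83 (log2 fold change 0.31). Ezrin is also found in mesothelium, and the 8 mesothelial markers fell by unlike amounts in the same libraries. Log2 fold changes were −1.09 for Krt19, −1.31 for Wt1, −1.52 for Msln and −3.28 for Upk3b. They were −3.45 for Upk1b, −4.21 for Gpm6a, −4.64 for Lrrn4 and −5.02 for Muc16. The part of mesothelial cells in the change of Ezr was not tested. Of the 6 CD44 partners tested, 2 rose, 1 fell and 3 did not pass, among them the CD44 ligand gene Spp1 at 1425 ± 20.7 and 1345 ± 77.2 CPM (log2 fold change −0.08, SE 0.0408). The median was 0.02.

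**Figure D4:**
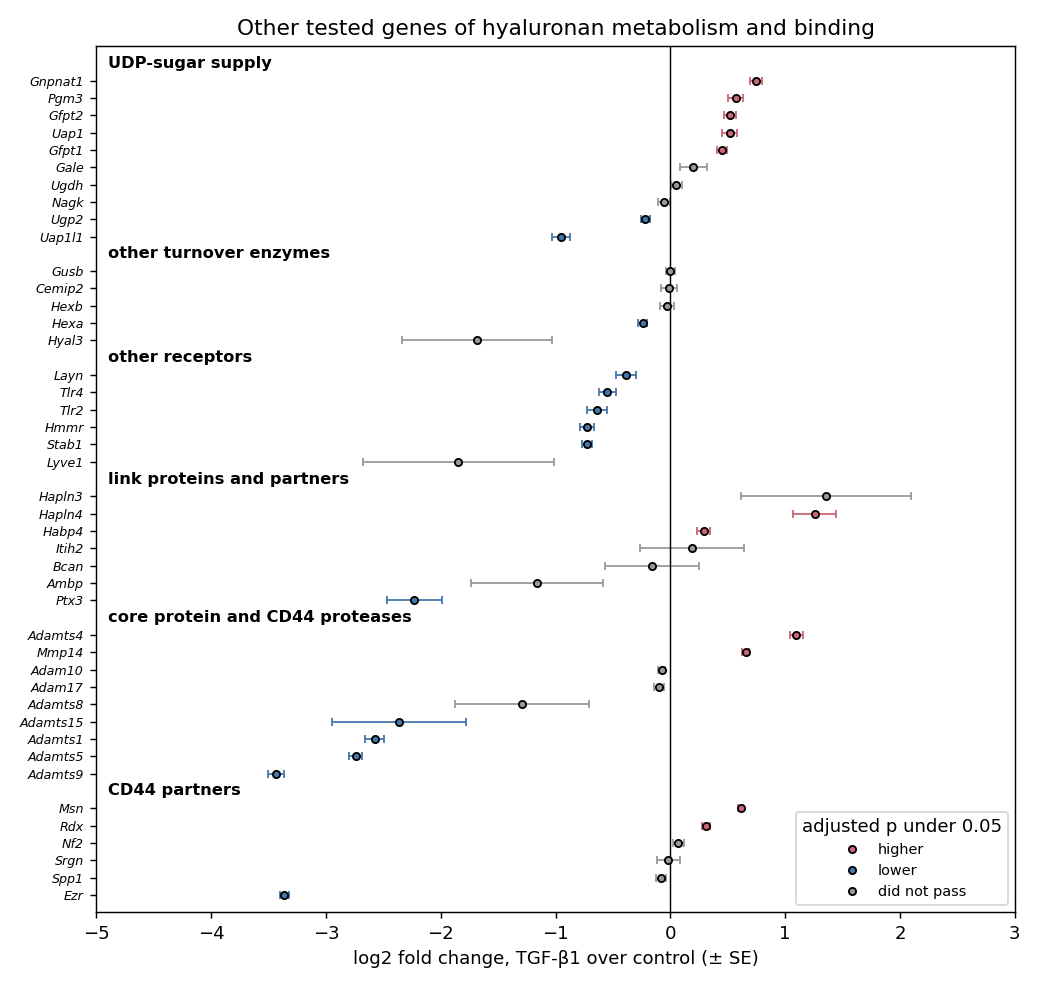
Fitted log2 fold change, TGF-β1 over control, with its SE, of the 43 other tested genes of hyaluronan metabolism and binding, in 6 lists and coloured by whether the adjusted p was under 0.05. The receptor list lies below 0, the precursor list reaches from −0.95 to 0.75, and Ezr and Adamts9 lie below −3.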

How the data were processed

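The deposited table gives whole-number counts for each Ensembl gene in 5 libraries, unscaled. Per the labels' protocols, RNAiso Plus was used to extract RNA, and libraries were strand-specific and polyA-based. Per the submitters' processing notes, STAR 2.5.3a, StringTie 1.3.1c and mm10 are named without their roles; no source used here gives the counting tool or its strand setting. The 10 genes and the lists were chosen with earlier results of these data known.

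GENCODE M21 (GRCm38) matched 55154 of 55335 IDs; the other 181 held at most 0.00374% of a library. Counts were filtered with filterByExpr, scaled by TMM and fitted in edgeR 4.0.16 (R 4.3.3) by group, with Benjamini-Hochberg adjustment and two-sided tests. SE is the absolute log2 fold change over the square root of F. TPM used the union of annotated exons. The likeness to Has2 used a prior count of 2 and genes of at least 5 CPM in the higher group. Named genes were the 10, up to 4 per list by size of change with an adjusted p under 0.05 and at least 5 CPM in the higher group (else the most abundant), and the 3 most like Has2. The model was tested on simulated counts. Alternatives were other scalings, filters, DESeq2 1.42.0, a 1.5-fold null, the replicate block, leaving out each library and, added after seeing the data, Hyal1 with Naa80. Replicate numbers 1 and 2 occur in both groups, but 2 pairs are too few to show pairing. The floor for a group at 0 is 3 counts, for counting error only. The source of 1 exon overlap is not reported here.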

Additional observations from a re-analysis of the deposited data

How the results depend on the processing

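The directions of the 10 genes held under all alternatives run, and so did the calls of Has2, Cd44, Cemip, Acan and Tnfaip6. The call of Has1 held too where tested, which was not at over 1 CPM in 2 libraries. It is no support, because Has1 entered each test only through the TGF-β1 libraries. The largest adjusted p apart from the 1.5-fold null was 4.76e-06 for Has2, 7.08e-07 for Cemip, 1.10e-05 for Cd44, 5.67e-05 for Acan, 0.00652 for Tnfaip6 and 0.0203 for Has1. Against a 1.5-fold change, Vcan did not pass (adjusted p = 0.0779), 1 of the 10 was lower, 3 other pathway genes were higher and 9 lower, and 563 of all genes were higher and 1223 lower. With library totals 2325 of all genes were higher. Without the low-count filter 1 of the 10 was lower, with Has3 at an adjusted p of 0.0824 and Hyal1 at 0.0517; more genes were tested there. Leaving out 1 library at a time gave 1 to 2 lower and 6 to 7 higher of the 10, through Has3 and Hyal1. The cause of these losses was not tested. Leaving out a control leaves 1, whose spread is then taken from the TGF-β1 libraries. Among other pathway genes named by the rule, 8 values lost their call, all against the 1.5-fold change, and 196 kept direction and call. With the replicate block, 3538 of all genes were higher and 3727 lower, and 7 of the 10 higher and 2 lower. Number 3 occurs only in the TGF-β1 group, so the block takes up that library and the change rests on libraries 1 and 2. The block is thus close to leaving out TGF-β1 library 3 (Has3 log2 fold change −1.91 in both) and is no separate check. It changed no call among the 10. The difference between libraries 1 and 2 correlated across genes at 0.019 between the groups. With 2 possible pairs this value can neither show nor exclude pairing, and the main fit took the libraries as unpaired. Depth limits Has1 and Has3, with at most 58 counts a library.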
